A study of Homo sapiens with 6 samples.

Results

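Integrins are the receptors by which cells hold on to the matrix around them, and their genes were followed here in SW480 cells after exposure to the mitochondria-targeting compound MPM-1. SW480 is a long-established line from a human adenocarcinoma of the colon. The genes were chosen by symbol: ITGA2, ITGA3, ITGA5, ITGA6, ITGAV, ITGB1, ITGB4, ITGB5, ITGB6 and ITGB8. Of these 10, 8 were found among the 12982 genes of the expression table, and ITGB6 and ITGB8 were not analysed here. The cells carried no engineered allele by the labels and were cultured for 24 h with DMSO, the solvent control, or with MPM-1, which the labels also call WT4. Each treatment had 3 RNA sequencing libraries made from messenger RNA, and all 6 libraries came from the same line. The concentration of MPM-1 used for sequencing is not given in the sources used here. Nothing in the labels says that the libraries of a treatment came from separate cultures, so the p-values below measure the spread between these libraries, which may be technical.

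An integrin is a pair of 1 alpha and 1 beta chain. The beta1 chain, from ITGB1, pairs with many alpha chains, among them alpha2, which forms a collagen receptor, alpha3 and alpha6, which form laminin receptors, and alpha5, which forms the main fibronectin receptor. The beta4 chain pairs with alpha6 alone and anchors epithelial cells to laminin in the hemidesmosome, a junction tied to the keratin filaments. The alphaV chain pairs with beta1, beta3, beta5, beta6 or beta8 and binds vitronectin, fibronectin or the latent form of TGF-beta, among others. Inside the cell, talin, kindlin and focal adhesion kinase link the beta tails to actin and to signaling.

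The libraries held between 31733667 and 40269820 counted reads, and no library pair agreed within sampling noise. Counts were scaled to library size as CPM values with the TMM normalization factors of edgeR, and the change of a gene is given as a log2 fold change of MPM-1 over DMSO with its standard error (SE). A gene is said to have risen or fallen where the adjusted p of edgeR's quasi-likelihood test was under 0.05, and is called a differentially expressed gene (DEG) where the adjusted p was under 0.01 and the log2 fold change was at least 1 in size. Over all genes the median log2 fold change was -0.026, and 3596 genes rose while 3740 fell. With library size alone as the scale, that median became -0.18 and the split became 2589 against 4871. All 8 epithelial marker genes of the list used were in the table, with summed FPKM of 4768 to 5492 in DMSO and 6710 to 7174 in MPM-1. That sum was mostly KRT8, KRT18 and KRT19, keratins that rose together with CDH1, while the intestinal markers CDX2 (log2 fold change -2.20), KRT20 (-2.03) and VIL1 (-0.88) fell and EPCAM did not pass the test (edgeR adjusted p 0.995). The part of these markers in the results below was not tested. Of 11 markers of blood, vessel and stromal cells, 3 were in the table, with summed FPKM of 5.32 to 6.27 in DMSO and 1.38 to 2.87 in MPM-1. They were CD14, PDGFRB and COL1A1, and COL1A1 is also among the matrix ligands below. Of these, 2 fell, both as DEGs, where 8.75% of all genes were lower DEGs, and 1 did not pass the test.

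Of the 8 integrin genes, 6 rose, 1 fell and 1 did not pass the test. Among all 12982 genes tested, 27.7% rose and 28.8% fell. ITGA2 and ITGA3 were DEGs, both higher with MPM-1, where 5.58% of all genes were higher DEGs and 8.75% were lower ones. The CPM of 6 integrin genes lay above DMSO in every MPM-1 library and that of 1 lay below, against 31.0% and 33.3% of all genes. The median log2 fold change of the 8 was 0.52. In FPKM, a level that the authors had divided by transcript length and sequencing depth, their sum ran from 274 to 278 in the DMSO libraries and from 369 to 396 in the MPM-1 libraries. These are bulk samples, in which fewer cells of a type and less RNA per cell cannot be told apart. Unless another fit is named, fold changes of single genes below come from the TMM-scaled counts. They can differ from the ratio of the FPKM values printed beside them.

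**Figure D1:**
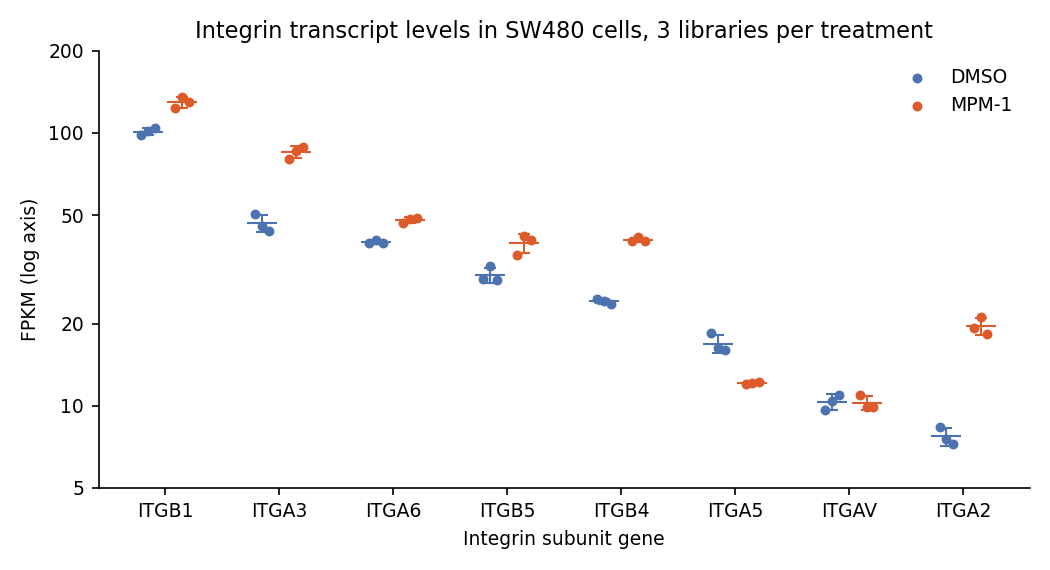
The 8 integrin genes stand side by side, with FPKM on a logarithmic vertical axis. The 3 DMSO and 3 MPM-1 libraries are points, with the mean and SD. ITGA2 went from a mean of 7.72 to 19.5 and ITGA3 from 46.6 to 85.2, while ITGA5 went from 16.9 to 12.1 and the points of ITGAV overlapped.

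ITGA2 showed the largest fold change of the 8 genes. It encodes the alpha2 chain of the collagen receptor and lies on chromosome 5 at 52989326 to 53094779 on the plus strand of GRCh38 (GENCODE 29, protein coding, ENSG00000164171). Its FPKM was 8.38, 7.57 and 7.22 in DMSO replicates 1 to 3 and 19.3, 21.1 and 18.2 in the MPM-1 replicates. Every MPM-1 library lay above every DMSO library. In CPM, ITGA2 went from 59.6 ± 5.70 to 167 ± 10.4 (SD, n = 3 each), a log2 fold change of 1.49 (SE 0.091) or 2.81-fold, with an edgeR adjusted p of 2.30e-06. Its place in the ranking of all genes by FPKM moved from the 50.3rd percentile in DMSO to the 73.3rd in MPM-1.

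The upstream sequence of ITGA2 is shown because this was the gene with the strongest change of the set. It was taken from RefSeq (GRCh38.p14, plus strand, chr5:52989102-52989325) and ends just before the annotated start of the gene. Capitals mark GGGCGG, the core letters of the GC box.
ITGA2 upstream: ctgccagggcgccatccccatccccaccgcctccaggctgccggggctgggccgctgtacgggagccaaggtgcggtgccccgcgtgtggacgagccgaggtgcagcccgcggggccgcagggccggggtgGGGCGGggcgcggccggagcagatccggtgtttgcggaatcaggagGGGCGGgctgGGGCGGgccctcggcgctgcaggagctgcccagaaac
These 224 bases held 3 such matches, and 77.2% of them were G or C. Searched on both strands, GGGCGG was found in 45% of 35116 RefSeq promoter windows of 300 bases, and TGACTCA, the AP-1 letters, in 4.95%. The 300-base window of ITGA2 held 4 matches to GGGCGG and 0 to TGACTCA. Among the other listed genes with a promoter entry, ITGA5 held 1 match to each motif, and ITGA6, ITGB1, ITGB5 and ITGB8 held GGGCGG in at least 1 of their windows and TGACTCA in none. ITGAV and ITGB6 held neither. A match describes letters and is not a binding site.

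The laminin receptor chains rose together. ITGA3 encodes the alpha3 chain and lies on chromosome 17 at 50055968 to 50090481 on the plus strand (ENSG00000005884). Its FPKM was 50.3, 45.6 and 43.8 in DMSO and 80.4, 86.0 and 89.1 in MPM-1, with no overlap. ITGA3 rose 2.02-fold, a log2 fold change of 1.01 (SE 0.085) with an edgeR adjusted p of 1.29e-05. This value sat at the DEG limit: it was 0.99, 0.96 and 0.99 without DMSO replicate 2, DMSO replicate 3 and MPM-1 replicate 3, and 0.87 with library size alone, so that ITGA3 rose in each but was then no DEG.

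ITGB4 encodes the beta4 chain of hemidesmosomes and lies on chromosome 17 at 75721328 to 75757818 on the plus strand (ENSG00000132470). Its FPKM was 24.5, 24.1 and 23.7 in DMSO and 40.0, 41.4 and 40.3 in MPM-1. The libraries of each treatment were close to each other and the treatments were far apart. ITGB4 rose 1.90-fold, a log2 fold change of 0.93 (SE 0.068) with an edgeR adjusted p of 6.04e-06. ITGB4 overlaps GALK1, the galactokinase gene, by 6225 bases on the opposite strand, and whether counting used strand is not given in the sources used here. GALK1 moved the other way, with 76.4, 62.7 and 68.2 CPM in DMSO and 35.2, 37.4 and 34.1 CPM in MPM-1 (log2 fold change -0.96, edgeR adjusted p 2.89e-05). The open point of strand is not particular to ITGB4. ITGB1 overlaps ITGB1-DT by 46948 bases on the opposite strand, and ITGAV overlaps AC017101.1 by 39563. ITGA5 overlaps AC079313.1 and AC079313.2 by 24200 bases each, which is its whole length, also on the opposite strand. ITGA6 overlaps AC078883.1 on the opposite strand by 25443 bases. On its own strand, ITGB5 overlaps AC022336.3 by 1986 bases, ENO1P3 by 1224 and RF00100 by 244. These overlapping genes were not in the expression table, and their part in the counts was not tested.

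ITGA6, the alpha6 partner of both beta1 and beta4, lies on chromosome 2 at 172427354 to 172506282 on the plus strand (ENSG00000091409). Its FPKM was 39.3, 40.6 and 39.4 in DMSO and 46.7, 48.3 and 48.9 in MPM-1. All MPM-1 libraries were higher, by a smaller step than for ITGA3 or ITGB4. The log2 fold change was 0.41 (SE 0.066), 1.33-fold, with an edgeR adjusted p of 0.000585. With library size alone it was 0.26, still past the test.

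ITGB1 encodes the shared beta1 chain and was the most highly expressed of the 8 genes in both treatments. It lies on chromosome 10 at 32900319 to 33005792 on the minus strand (ENSG00000150093). Its FPKM was 98.1, 101 and 104 in DMSO and 124, 135 and 129 in MPM-1, again with no overlap. In CPM it went from a mean of 358 to 512. The rise was 1.43-fold on this scale, or 0.52 as a log2 fold change (SE 0.065), with an edgeR adjusted p of 0.000138.

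ITGA5, the alpha5 chain of the fibronectin receptor, was the only one of the 8 that fell. It lies on chromosome 12 at 54395261 to 54419460 on the minus strand (ENSG00000161638). Its FPKM was 18.4, 16.3 and 16.0 in DMSO and 12.0, 12.1 and 12.3 in MPM-1. The 3 MPM-1 libraries lay within a narrow band below all DMSO libraries. The log2 fold change was -0.33 (SE 0.087), or 0.797-fold, with an edgeR adjusted p of 0.00975. Among the runs with 1 library left out it ranged from -0.37 to -0.24 and passed the test each time.

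The vitronectin receptor chains differed between themselves. ITGB5, the beta5 chain, lies on chromosome 3 at 124761948 to 124901418 on the minus strand (ENSG00000082781). Its FPKM was 29.2, 32.4 and 29.0 in DMSO and 35.7, 41.9 and 40.5 in MPM-1, with the lowest MPM-1 library above the highest DMSO library. The log2 fold change was 0.53 (SE 0.082), 1.45-fold, with an edgeR adjusted p of 0.000472.

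ITGAV, the alphaV chain, lies on chromosome 2 at 186590065 to 186680901 on the plus strand (ENSG00000138448). Its FPKM was 9.60, 10.4 and 11.0 in DMSO and 10.9, 9.89 and 9.92 in MPM-1, so that the treatments overlapped. In CPM it was 71.0 ± 3.57 in DMSO and 78.3 ± 5.51 in MPM-1 (SD, n = 3 each). The log2 fold change was 0.14 (SE 0.081) with an edgeR adjusted p of 0.166, and its sign turned with library size alone (-0.011) and in limma on log2(FPKM + 1) (-0.0099).

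**Figure D2:**
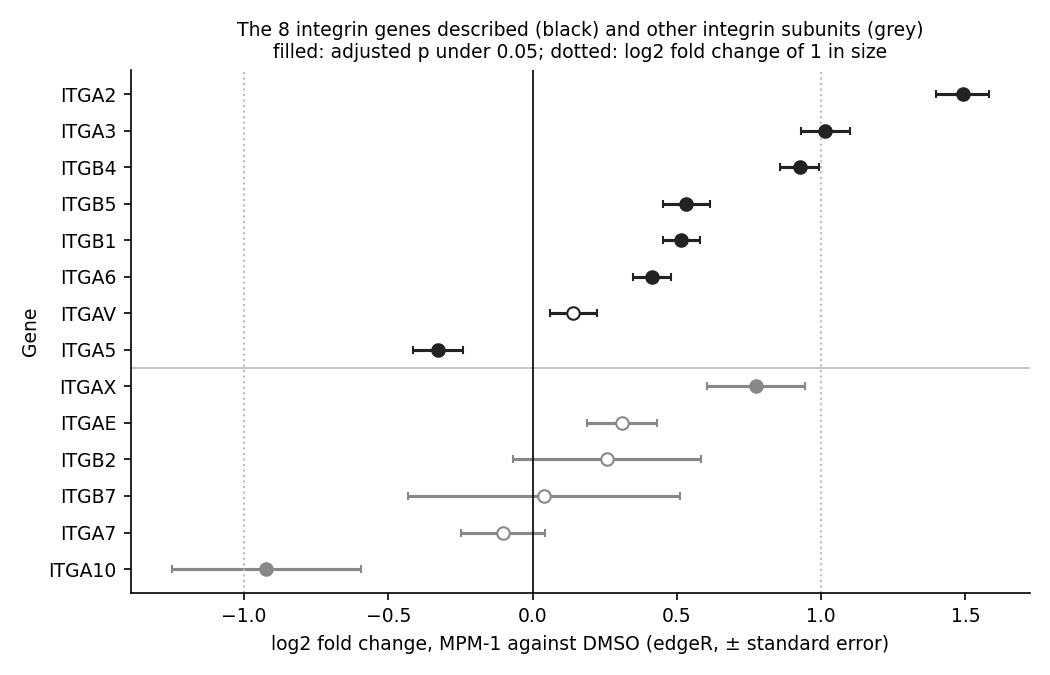
The horizontal axis gives the log2 fold change of MPM-1 over DMSO with its SE, for the 8 integrin genes in black and the other integrin subunits of the table in grey, filled where the adjusted p was under 0.05. ITGA2 (1.49), ITGA3 (1.01) and ITGB4 (0.93) stand farthest to the right and ITGA5 (-0.33) lies left of 0.

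The order of the levels changed in its lower part. Per length, in FPKM, the DMSO order was ITGB1, ITGA3, ITGA6, ITGB5, ITGB4, ITGA5, ITGAV and ITGA2, and no neighbours in it had overlapping libraries. In MPM-1 it was ITGB1, ITGA3, ITGA6, ITGB4, ITGB5, ITGA2, ITGA5 and ITGAV, where ITGB4 and ITGB5 overlapped and the other neighbours did not. ITGA2 thus went from the lowest place to above both ITGA5 and ITGAV.

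The makeup of the integrin transcripts was followed as shares of the summed FPKM of the 5 alpha genes and of the 3 beta genes. The alpha sum was 121 ± 4.40 in DMSO and 175 ± 5.01 in MPM-1, and the beta sum was 155 ± 3.24 and 209 ± 9.67 (SD, n = 3 each). Both sums were higher with MPM-1. ITGA3 took 38.4% ± 1.36 of the alpha sum in DMSO and 48.6% ± 1.22 in MPM-1, and ITGA2 took 6.36% ± 0.255 and 11.2% ± 0.860. ITGA5 took 13.9% ± 0.615 and then 6.92% ± 0.158, with no overlap between treatments for any of these. ITGA6 went from 32.8% ± 1.41 to 27.4% ± 0.173 although its own level rose, and ITGAV from 8.53% ± 0.874 to 5.86% ± 0.505. Among the beta genes, ITGB4 went from 15.5% ± 0.557 to 19.4% ± 0.601 and ITGB1 from 65.1% ± 1.14 to 61.8% ± 0.235. Only the share of ITGB5 overlapped between treatments, at 19.4% ± 1.01 and 18.8% ± 0.761. Within a pool a larger share of 1 gene lowers the others, so the shares are not separate results. Shares are of transcripts and do not say which pairs formed at the cell surface.

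**Figure D3:**
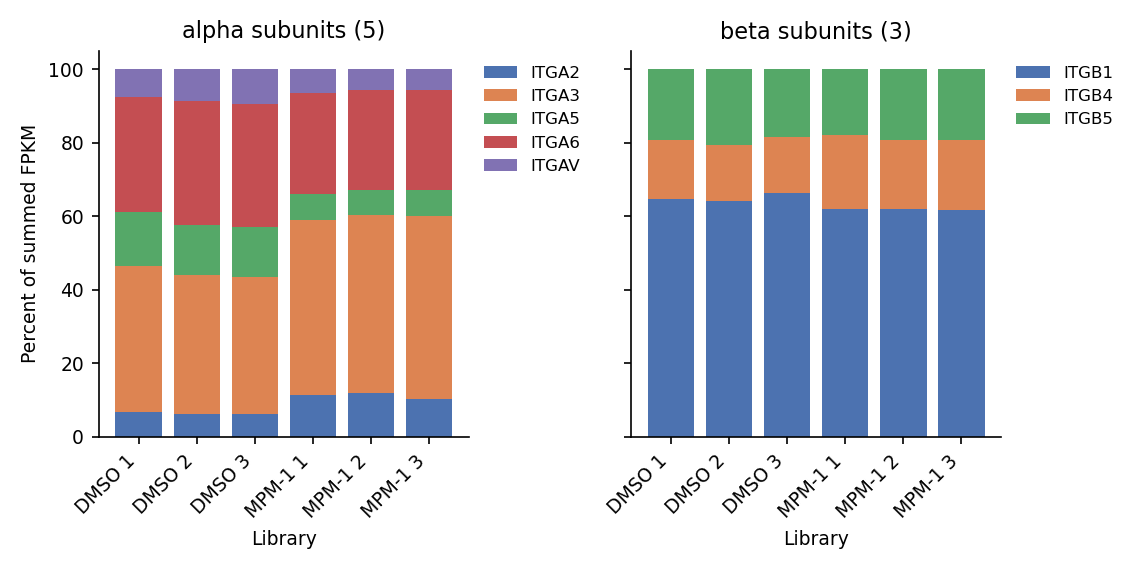
Stacked bars give, for each library, the percent of the summed FPKM of the 5 alpha genes (left) and the 3 beta genes (right). The ITGA3 part widens from a mean of 38.4% in DMSO to 48.6% in MPM-1, while the ITGA5 part narrows from 13.9% to 6.92%.

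Chains that form a known pair were also compared as ratios of FPKM within a library, which do not depend on the scaling between libraries. The ITGA2 to ITGB1 ratio was 0.0854, 0.0746 and 0.0695 in DMSO and 0.156, 0.156 and 0.141 in MPM-1, a 1.98-fold change. The ITGA3 to ITGB1 ratio was 0.513, 0.449 and 0.422 in DMSO and 0.650, 0.636 and 0.688 in MPM-1, a 1.43-fold change. Both alpha chains thus changed more than their partner. The ITGA5 to ITGB1 ratio was 0.188, 0.160 and 0.154 in DMSO and 0.0972, 0.0892 and 0.0947 in MPM-1, a 0.562-fold change, since the 2 genes moved in opposite directions. The ITGB4 to ITGA6 ratio was 0.623, 0.595 and 0.601 in DMSO and 0.857, 0.857 and 0.823 in MPM-1, a 1.39-fold change. The ITGB1 to ITGA6 ratio was 2.49, 2.50 and 2.64 in DMSO and 2.65, 2.80 and 2.65 in MPM-1, a 1.06-fold change, so that these chains stayed closest in proportion. The ITGB5 to ITGAV ratio was 3.04, 3.12 and 2.64 in DMSO and 3.27, 4.24 and 4.09 in MPM-1, a 1.31-fold change. None of the 6 ratios overlapped between treatments. Several share ITGB1 or ITGA6, so they are not 6 separate results. For single genes, the CPM of 31.0% of all genes lay above DMSO in every MPM-1 library and that of 33.3% lay below. For ITGB1 to ITGA6 the gap was small, from 2.638 in DMSO replicate 3 to 2.646 in MPM-1 replicate 3. The two-sided exact permutation p was 0.1 for each of the 6 ratios, the smallest that 3 against 3 libraries allow. It was 0.1 after Benjamini-Hochberg adjustment over the 6.

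**Figure D4:**
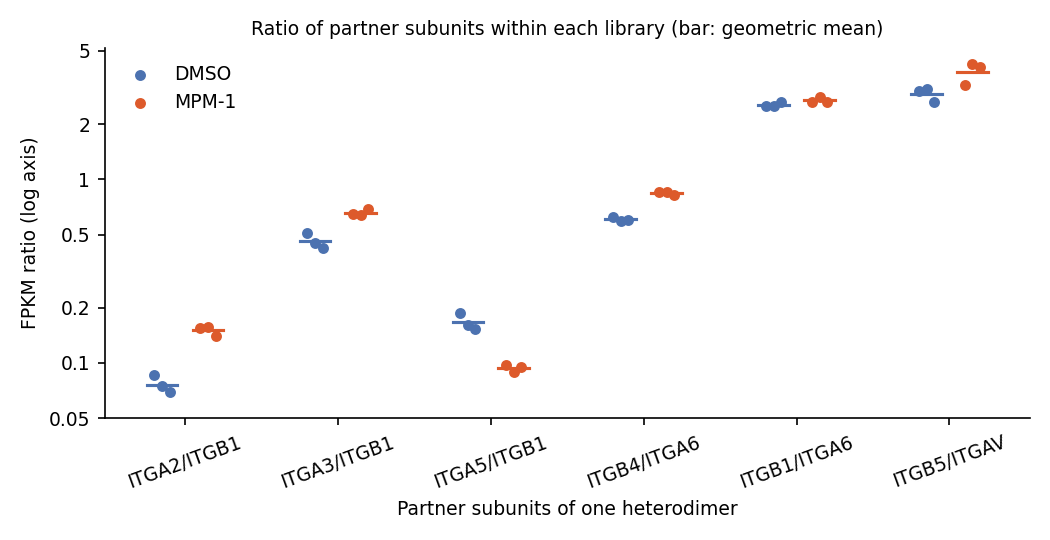
The ratios of FPKM within a library stand side by side on a logarithmic vertical axis. The 3 DMSO and 3 MPM-1 libraries are points, and a bar marks the geometric mean. The ITGA5 to ITGB1 ratio is lower in every MPM-1 library (0.562-fold) and the other 5 are higher, from 1.06-fold for ITGB1 to ITGA6 up to 1.98-fold for ITGA2 to ITGB1.

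Of 16 other integrin subunit genes listed, 6 were in the table. ITGAX, the alphaX chain known from myeloid cells, rose by a log2 fold change of 0.77 (edgeR adjusted p 0.00366), from a mean FPKM of 5.11 to 7.94. ITGA10, the alpha chain of a collagen receptor of cartilage, fell by 0.92 on the log2 scale (edgeR adjusted p 0.0354), from 45, 60 and 49 counts in DMSO to 26, 20 and 20 in MPM-1. This call was lost with DESeq2 (adjusted p 0.0937) and without any one of 5 of the 6 libraries (MPM-1 replicate 1 being the exception), with adjusted p up to 0.103. The other 4 did not pass the test. Thus 1 of the 6 rose and 1 fell, where 27.7% of all genes rose and 28.8% fell. The median log2 fold change of the 6 was 0.15, against -0.026 over all genes.

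The ligands of the laminin receptors were described next. Of 22 laminin and basement membrane genes listed, 13 were in the table. Of these, 8 rose, 4 fell and 1 did not pass the test, where 27.7% of all genes rose and 28.8% fell. The median log2 fold change of the 13 was 0.51, or 0.25 in limma on log2(FPKM + 1) without a filter. Among the largest rises were LAMA3 and LAMB3, which encode chains of laminin-332, the ligand of the alpha3 beta1 and alpha6 beta4 receptors. LAMA3, the alpha chain, had FPKM of 1.66, 1.40 and 1.97 in DMSO and 5.00, 4.18 and 6.68 in MPM-1 (log2 fold change 1.71). LAMB3, the beta chain, had 23.8, 16.3 and 15.9 and then 67.5, 54.2 and 63.9 (1.87). Both lay higher in every MPM-1 library, as did the CPM of 31.0% of all genes. The largest falls were LAMA2, the alpha chain of muscle laminin (log2 fold change -2.45), HSPG2, which encodes perlecan (-0.54), and AGRN, which encodes agrin (-0.49). LAMA2 was low, with a mean FPKM of 0.40 in DMSO and 0.064 in MPM-1.

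All 7 genes of the hemidesmosome list rose, where 27.7% of all genes rose, and 4 were higher DEGs, where 5.58% of all genes were. Their median log2 fold change was 1.63, or 1.48 with library size alone and 1.22 to 1.52 in the limma fits on FPKM. The list shares LAMA3 and LAMB3 among others with the list above. The genes of it named next were chosen after their values were seen. PLEC, which encodes plectin, the linker from the beta4 tail to keratin filaments, had FPKM of 16.8, 15.8 and 17.0 in DMSO and 47.0, 47.3 and 48.1 in MPM-1 (1.63). COL17A1, the transmembrane collagen of hemidesmosomes, rose by 0.75, CD151, a tetraspanin bound to laminin receptors, by 0.70, and DST, which encodes dystonin, by 0.29 on the log2 scale. With ITGA6 and ITGB4, whose values stand above, both chains of the alpha6 beta4 receptor and all 7 listed hemidesmosome genes were thus higher in MPM-1. With the replicate number as a block, 6 of the 7 passed, and with 1 library left out 6 to 7 did.

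**Figure D5:**
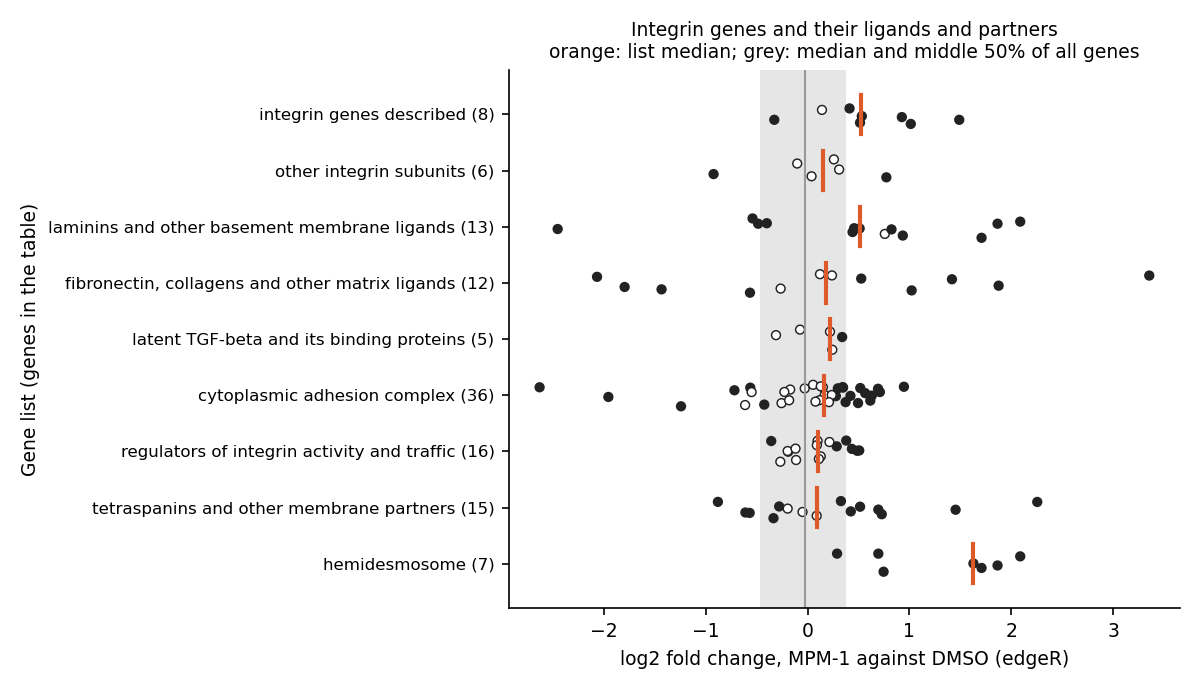
Each row is 1 gene list with its number of genes in the table, and each point is the log2 fold change of 1 gene on the horizontal axis, filled where it passed the test, with list medians in orange and the median and middle 50% of all genes in grey. The hemidesmosome list lies wholly to the right of 0 with a median of 1.63, the 8 integrin genes have a median of 0.52, and the adhesion complex list, with a median of 0.16, spreads to both sides.

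Of 19 collagens, fibronectin and other matrix ligand genes listed, 12 were in the table (median log2 fold change 0.18). Of these, 5 rose, 4 fell and 3 did not pass the test, where 27.7% of all genes rose and 28.8% fell. CTGF, a secreted matrix protein, rose by 1.88 and TNC, which encodes tenascin C, by 1.42 on the log2 scale. COL6A3, a collagen VI chain, rose from 10, 0 and 8 counts in DMSO to 45, 49 and 65 in MPM-1. The largest falls were those of COL1A1 (-2.07) and COL5A1 (-1.43), collagen chains, and FBN1, which encodes fibrillin (-1.80). Their mean FPKM was low: 0.47 in DMSO and 0.094 in MPM-1 for COL1A1, 1.38 and 0.46 for COL5A1, and 0.14 and 0.039 for FBN1. In limma on log2(FPKM + 1) without a filter, COL6A3 and FBN1 did not pass. Of 9 genes of latent TGF-beta and its binding proteins, 5 were in the table and 1 passed the test: TGFB1 rose by 0.34 (edgeR adjusted p 0.0184). It did not pass with library size alone or with limma on FPKM, nor without replicate 2 or 3 of DMSO, nor without MPM-1 replicate 3.

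Of 40 genes of the cytoplasmic adhesion complex, 36 were in the table. Over all genes 27.7% rose and 28.8% fell, while 15 of these genes rose, 6 fell and 15 did not pass the test. Their median log2 fold change was 0.16. With library size alone 11 rose, 11 fell and the median was 0.0048, and in the limma fits on FPKM 8 rose and 6 to 9 fell. Among the largest rises were FERMT1, the epithelial kindlin (0.71), and PARVA, which encodes a parvin (0.70). In limma on log2(FPKM + 1), FERMT1 (0.48, adjusted p 0.0633) did not pass. The largest falls were FERMT3, the kindlin known from blood cells, KANK2, a partner of talin, and TNS1, which encodes a tensin (-1.24). FERMT3 had 68, 75 and 64 counts in DMSO and 11, 12 and 4 in MPM-1 (-2.63). KANK2 had 873, 1370 and 1052 counts in DMSO and 251, 47 and 402 in MPM-1 (-1.96), with a wide spread among the MPM-1 libraries. Of 17 regulators of integrin activity and traffic, 16 were in the table, of which 5 rose, 1 fell and 10 did not pass. This balance turned with the scale: 4 rose and 6 fell with library size alone, and 2 rose and 6 fell in each limma fit on FPKM. RAP1B, a small GTPase that activates integrins, rose by 0.51, MYO10, a myosin of filopodia, by 0.49, RAB21, a GTPase of integrin traffic, by 0.43, and KRIT1, which binds ICAP1, fell by 0.36 on the log2 scale. In limma on log2(FPKM + 1), MYO10 (adjusted p 0.0708) and RAB21 (adjusted p 0.0744) did not pass, and KRIT1 did not pass without replicate 2 or 3 of DMSO or replicate 1 or 3 of MPM-1.

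Of 17 tetraspanins and other membrane partners of integrins, 15 were in the table, with a median log2 fold change of 0.090. Among these, 7 rose, 5 fell and 3 did not pass the test, where 27.7% of all genes rose and 28.8% fell. PLAUR, the urokinase receptor, had FPKM of 112, 73.1 and 78.5 in DMSO and 394, 318 and 401 in MPM-1 (log2 fold change 2.26). SLC3A2, the heavy chain of CD98, which binds beta tails, had 95.2, 92.2 and 94.3 and then 240, 213 and 247 (1.45). Both were higher DEGs, where 5.58% of all genes were. Their libraries did not overlap, and the CPM of 31.0% of all genes lay above DMSO in every MPM-1 library. BSG, which encodes basigin, rose by 0.73. CD82, a tetraspanin, fell by 0.88, CAV1, which encodes caveolin, by 0.61 and CD44, the hyaluronan receptor, by 0.57 on the log2 scale. CD44 did not pass with DESeq2 size factors, with the replicate block, with limma on FPKM, or without replicate 2 or 3 of DMSO or replicate 1 or 2 of MPM-1, where the log2 fold changes of the last 4 ran from -0.56 to -0.42.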

How the data were processed

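RNA sequencing of SW480 cells gave 6 libraries, grouped by the treatment in their labels. The authors deposited 1 table with the raw count and the FPKM of each gene in each library. The authors also deposited a log2 fold change and an adjusted p-value of their own comparison per gene, which were not used. The submitters' processing notes name HISAT2, DESeq2 and the build mm10. That is a mouse build, while all 12127 Ensembl identifiers of the table matched human GENCODE 29, from which positions were taken.

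Counts were tested with edgeR 4.0.16 (R 4.3.3; TMM, quasi-likelihood, Benjamini-Hochberg over 12982 genes; the edgeR filter on low counts removed none). Alternatives were DESeq2 1.42.0, other scalings and filters, limma 3.58.1 on log2(FPKM + 1) or log2(FPKM + 0.1) with an FPKM minimum of 1 or none, a replicate block, and leaving out each library. Ratios used the exact permutation test. The pipeline was tested on simulated data. The genes and lists were chosen with earlier results of these data known. Named are all 8 integrin genes found and, per list, at most the 3 largest rises and 3 largest falls past the test, unless stated. Protein sequences, and promoters of ITGA3 and ITGB4, were not used here. Results of some listed genes are not reported here.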

Additional observations from a re-analysis of the deposited data

How the results depend on the processing

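The 7 integrin genes past the test kept their direction and their call under every alternative run. The number of DEGs among them was 1 with library size alone and with each of the 3 limma fits on FPKM, and 1 to 2 with 1 library left out. ITGAV, not called, had log2 fold changes of -0.011 with library size alone and -0.0099, -0.011 and -0.0099 in the limma fits (pseudocount 1, pseudocount 0.1, pseudocount 1 without a filter). With counts in place of FPKM the share shifts were 6.86 percentage points for ITGA2, 8.56 for ITGA3, -5.84 for ITGA5, -3.58 for ITGAV and 5.09 for ITGB4. The other integrin subunits past the test numbered 1 at a mean of at least 50 counts, in the limma fits and with the replicate block, and 1 to 2 with 1 library left out, where their median ran from -0.032 to 0.32. It was -0.032 without DMSO replicate 3 and -0.022 without MPM-1 replicate 3. Latent TGF-beta genes past the test numbered 0 in the limma fits and 0 to 1 with 1 library left out. Regulators past the test numbered 10 with library size alone, with medians of -0.043 there and -0.0501, -0.062 and -0.0501 in the limma fits. The median of the tetraspanin list was -0.060 with library size alone, and that of the matrix ligands -0.0053 in limma without a filter. The cause of these shifts was not tested. Replicate numbers are shared between treatments only as numbers: deviations of same-numbered libraries correlated at 0.021, 0.11 and -0.074, and not every library correlated best with its own number. With the replicate block, 3475 genes rose and 3642 fell, and 7 integrin genes passed. The median of the 8 integrin genes was 0.37 with library size alone and 0.36 to 0.37 in the limma fits, and that of the laminin list 0.36 and 0.25 to 0.36. The adhesion complex median was 0.034 in limma without a filter. The 8 integrin genes had at least 1761 counts in each library.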
